A study of Mus musculus with 6 samples.

Results

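The genes described here belong to the mitochondrial capsule of the mouse sperm midpiece and to the thiol and peroxide chemistry of the male germ cell: *Smcp*, *Gpx4*, *Akap1*, *Txndc2*, *Txndc8*, *Txnrd3* and *Prdx4*. They were taken by gene symbol, as the probe sets that the probe table of the array assigns to that symbol alone. This gave 7 genes of the 23152 measured and 69 probe sets of 233753. Each gene was read as the mean of the log2 signals of its probe sets on an array.

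RNA came from testicular germ cells of 22-day-old male mice of the FVB strain, and RNA of each mouse went onto its own Affymetrix mouse gene array. The 3 controls were *Mgat1*[F/F] mice, and the 3 mutants were *Mgat1*[F/F]:Stra8-iCre mice, termed *Mgat1* cKO. Both groups carried floxed *Mgat1* alleles, and only the mutants carried the Stra8-iCre transgene, which is active from spermatogonia onward, so that germ cells and not the somatic cells of the testis lose the gene. *Mgat1* encodes GlcNAcT-I, the enzyme that opens the synthesis of hybrid and complex N-glycans. The comparison asked how transcripts of germ cells differ between the genotypes before the loss of spermatids is visible.

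In the developing spermatid, mitochondria gather around the base of the flagellum and are wrapped in a keratin-like capsule whose proteins are joined by disulfide bridges. SMCP, a small protein rich in cysteine and proline, and the selenoprotein GPX4, a peroxidase that becomes an insoluble structural protein in mature sperm, are parts of this capsule. Testis-specific thioredoxins, the reductase TXNRD3 and the peroxiredoxin PRDX4 of the endoplasmic reticulum move electrons to and from such thiols, and AKAP1 tethers protein kinase A to the outer mitochondrial membrane.

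Germ cell markers were read on these arrays, but without whole testis beside them their level cannot check the label. The study reported, by PCR, that transcripts marking Sertoli and Leydig cells were much lower in germ cells than in whole testis. The mean log2 level of 6 germ cell genes was 11.56 to 11.67 in controls and 11.20 to 11.40 in the cKO. Of these 6, 3 were lowered (*Tex101*, *Tdrd1* and *Dazl* fell by 0.73, 0.67 and 0.59 on the log2 scale), 0 were raised and the median log2 fold change was -0.33. The correlation of arrays was 0.992 to 0.993 within controls, 0.992 to 0.994 within the cKO and 0.950 to 0.970 between the groups. *Mgat1* itself did not pass the test (log2 fold change -0.13, adjusted p = 0.356 by limma, 12 probe sets). The sources used here do not place its probe sets relative to the deleted part, so it did not check the labels. By PCR, the study reported a large loss of *Mgat1* transcripts and only deleted *Mgat1* alleles in mutant germ cells. Over all genes the median log2 fold change was -0.02 and the median standard error was 0.11.

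Of the 7 genes, 6 were raised in the cKO and 0 were lowered (limma, adjusted p under 0.05), where 13.3% of all genes were raised, 18.4% were lowered and 31.7% passed in either direction. The increase was 9.51-fold for *Txndc2*, 4.31-fold for *Smcp*, 3.50-fold for *Akap1*, 3.28-fold for *Txndc8*, 1.85-fold for *Prdx4* and 1.34-fold for *Gpx4*, and *Txnrd3* did not pass the test. In each of the 7 genes all cKO arrays lay above all control arrays, which held for 20.1% of all genes, while the reverse order held for 26.6%. Past 2-fold as well as the test were 4 of the 7 genes and 4.18% of all genes. In bulk RNA, more or fewer cells of a type and more or less RNA per cell cannot be told apart.

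**Figure D1:**
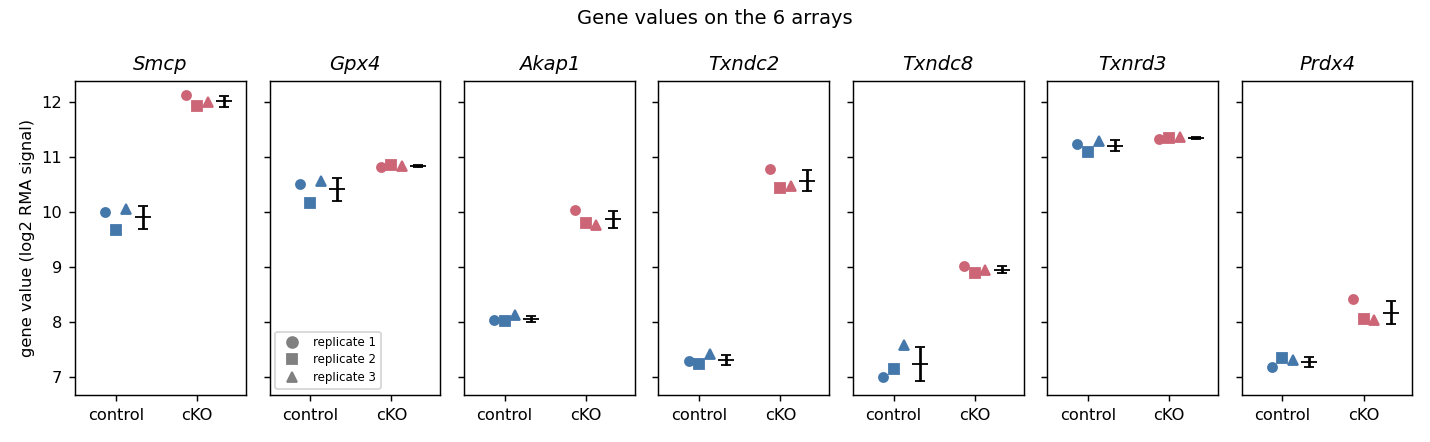
Value of each gene (log2 RMA signal, vertical axis) on the 3 control and 3 cKO arrays, with the marker shape giving the replicate number and the bar giving mean ± SD. *Txndc2* lies between 7.24 and 7.42 in controls and between 10.44 and 10.78 in the cKO, while the *Txnrd3* groups are separated only by the interval from 11.29 to 11.32.

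*Smcp* encodes the cysteine-rich protein after which the sperm mitochondrial capsule is named. It lies on chromosome 3 (chr3:92583866-92589073, GRCm38.p6). Its log2 value was 10.00, 9.67 and 10.05 on the control arrays and 12.12, 11.92 and 12.00 on the cKO arrays. Every cKO array thus exceeded the highest control, and control replicate 2 was the lowest array. The means were 9.91 ± 0.209 and 12.01 ± 0.102 (SD, n = 3), a log2 fold change of 2.11 with a standard error of 0.12 and a 95% interval of 1.84 to 2.38, and *Smcp* rose 4.31-fold (3.57 to 5.20) with an adjusted p of 2.53e-06 (limma, Benjamini-Hochberg over all genes). Its 3 probe sets rose alike, by log2 fold changes of 1.99 to 2.18, and none of them deviated from the others.

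*Gpx4* encodes a selenoprotein with cytosolic, mitochondrial and nuclear forms that arise from different starts of the same gene (chr10:80047166-80056439). Its log2 value was 10.50, 10.17 and 10.56 on the control arrays and 10.82, 10.86 and 10.84 on the cKO arrays. The cKO arrays were close together, and the controls were spread, with replicate 2 lowest. The difference of 0.42 (SE 0.11, 95% interval 0.17 to 0.68), from 10.41 ± 0.209 to 10.84 ± 0.0185, was 1.34-fold with an adjusted p of 0.0200 by limma. This call was lost when control replicate 2 was left out (log2 fold change 0.30, limma adjusted p = 0.0568) and when any cKO array was left out, with adjusted p from 0.0514 to 0.0585. Of its 10 probe sets, 9 were higher in the cKO and 8 did not overlap between the groups, but 0 passed the test singly, the lowest adjusted p being 0.0611 (limma). The probe set with the widest difference, 1.62, read 7.75, 6.23 and 7.60 on the control arrays and 8.95, 8.94 and 8.54 on the cKO arrays. The annotation lists 2 *Gpx4* pseudogenes, so which of these copies gave rise to the signal is uncertain.

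*Akap1* encodes the A-kinase anchoring protein of the outer mitochondrial membrane, which in male germ cells has been found along the midpiece (chr11:88830792-88864596). Its log2 value was 8.04, 8.01 and 8.12 on the control arrays and 10.04, 9.80 and 9.76 on the cKO arrays. The controls were close together and cKO replicate 1 was the highest array, with no overlap. *Akap1* rose from 8.06 ± 0.0566 to 9.87 ± 0.152, by 1.81 on the log2 scale (SE 0.10, 95% interval 1.57 to 2.04), or 3.50-fold, with an adjusted p of 2.51e-06 (limma). The study also chose this gene for a PCR assay from its array results, so its direction here is not independent evidence.

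*Txndc2* and *Txndc8* encode thioredoxins made in spermatids, the first found with the fibrous sheath of the tail and the second with the Golgi apparatus and the forming acrosome. *Txndc2* (chr17:65637505-65648874) had log2 values of 7.29, 7.24 and 7.42 on the control arrays and 10.78, 10.44 and 10.48 on the cKO arrays. It showed the widest difference of the 7 genes, and its rank by log2 fold change was 24 among all 23152 genes. The means were 7.32 ± 0.0897 and 10.57 ± 0.187, and *Txndc2* rose by 3.25 on the log2 scale (SE 0.11, 95% interval 2.99 to 3.51), or 9.51-fold, with an adjusted p of 4.78e-07 (limma). The study named *Txndc2* among the most raised genes of these arrays, so this rank adds no independent evidence. *Txndc8* (chr4:57984021-58009135) read 7.0, 7.14 and 7.58 on the control arrays and 9.02, 8.90 and 8.94 on the cKO arrays. The spread was wider in controls, where replicate 3 was highest, than in the cKO. *Txndc8* rose from 7.24 ± 0.303 to 8.96 ± 0.0607, by 1.71 (SE 0.14, 95% interval 1.39 to 2.04), or 3.28-fold, with an adjusted p of 2.31e-05 (limma). Among its 7 probe sets, all were higher in the cKO, 5 were raised and the log2 fold changes ran from 0.34 to 2.68.

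*Txnrd3* encodes thioredoxin glutathione reductase, a selenoprotein of the testis that reduces both thioredoxin and glutathione-dependent substrates (chr6:89643988-89675529). Its log2 value was 11.23, 11.10 and 11.29 on the control arrays and 11.32, 11.34 and 11.37 on the cKO arrays. The cKO arrays lay just above the controls. The difference of 0.14 (SE 0.09, 95% interval -0.07 to 0.34) did not pass the test (adjusted p = 0.283, limma), and the interval in folds was 0.954 to 1.27. Of 18 probe sets, 15 were higher in the cKO, 7 did not overlap and 0 were called, with log2 fold changes from -0.08 to 0.46. The upper bound of this interval lay below the lower bounds for the thioredoxins *Txndc2* and *Txndc8* (2.99 and 1.39), a difference between genes that was not itself tested.

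*Prdx4* encodes the peroxiredoxin of the endoplasmic reticulum, which turns peroxide into disulfide bonds for protein folding (chrX:155323918-155342272). Its log2 value was 7.18, 7.35 and 7.31 on the control arrays and 8.41, 8.06 and 8.04 on the cKO arrays. The groups did not overlap and cKO replicate 1 stood above the other two. *Prdx4* rose from 7.28 ± 0.0889 to 8.17 ± 0.210, by 0.89 (SE 0.12, 95% interval 0.62 to 1.16), or 1.85-fold, with an adjusted p of 0.000575 (limma).

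The gene value hides a wide span among the *Prdx4* probe sets. Of the 11, 4 were raised, 4 others were higher without passing the test and 3 were lower without passing it. Among the lower ones, 17545606 (-0.05) was dim, with means of 3.72 in controls and 3.67 in the cKO. Probe set 17545607, higher by 0.92, was dim too, at 3.56 and 4.49, and both enter the gene value. The probe sets at both ends of the span, whose log2 fold changes lie 3.48 apart, are neighbors in identifier number. Probe set 17545616 read 7.40, 7.51 and 8.19 on the control arrays and 10.89, 10.50 and 10.42 on the cKO arrays, and it rose by 2.90 (SE 0.26, adjusted p = 0.00220, limma). Probe set 17545617 read 6.41, 6.32 and 7.50 on the control arrays and 9.45, 9.05 and 9.19 on the cKO arrays, a rise of 2.48 (SE 0.33, adjusted p = 0.00903, limma). Both had control replicate 3 as the highest control, and in both every cKO array exceeded it. By contrast, probe set 17545615 read 7.53, 7.64 and 7.31 on the control arrays and 7.28, 7.11 and 6.36 on the cKO arrays, with a difference of -0.58 that did not pass the test (adjusted p = 0.212, limma). Probe set 17545614 read 9.42, 9.76 and 8.89 on the control arrays and 8.81, 8.83 and 9.10 on the cKO arrays, a difference of -0.44 with overlapping groups (adjusted p = 0.295, limma). The mouse *Prdx4* gene is known to give a testis transcript with a first exon of its own, but the sources used here do not say which probe sets read that exon.

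Each probe set was also compared with the mean of the other probe sets of its gene on the same array, and the difference was tested between genotypes with limma over 231434 probe sets. Of the 69 probe sets, 6 deviated from the rest of their gene, beside 0.811% of all probe sets. A larger log2 fold change than the rest was found for 3 of them (0.46% of all probe sets) and a smaller one for 3 (0.351% of all). In *Prdx4* only probe set 17545616 deviated, by 2.21 above the rest (adjusted p = 0.0255, limma). In *Txndc2* probe set 17346747, which read 4.44, 4.33 and 4.20 on the control arrays and 8.88, 8.66 and 8.62 on the cKO arrays, differed by 4.39 where the other 3 probe sets rose by 2.60 to 3.04. It deviated by 1.53 (adjusted p = 0.0287, limma). *Akap1* held the other 4 deviating probe sets. Its probe sets 17267588, 17267589 and 17267600 had log2 fold changes of 0.62, 0.02 and -0.09, and fell short of the rest of the gene with adjusted p of 0.0384, 0.0412 and 0.0206 (limma). Probe set 17267593 exceeded the rest, with a log2 fold change of 2.70 (adjusted p = 0.0458, limma). The median over its 16 probe sets was 2.34 and 12 were raised, so that the gene value of 1.81 averages 12 raised probe sets with 4 that did not pass the test, 17267599 with a log2 fold change of 0.49 among them. Probe set 17267600 was dim in both groups, at 5.79, 5.68 and 6.23 on the control arrays and 5.75, 5.80 and 5.89 on the cKO arrays. Leaving out any 1 array reduced the 6 deviating probe sets to between 0 and 3, and 13 were called when the dimmest 25% of probe sets were left out.

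**Figure D2:**
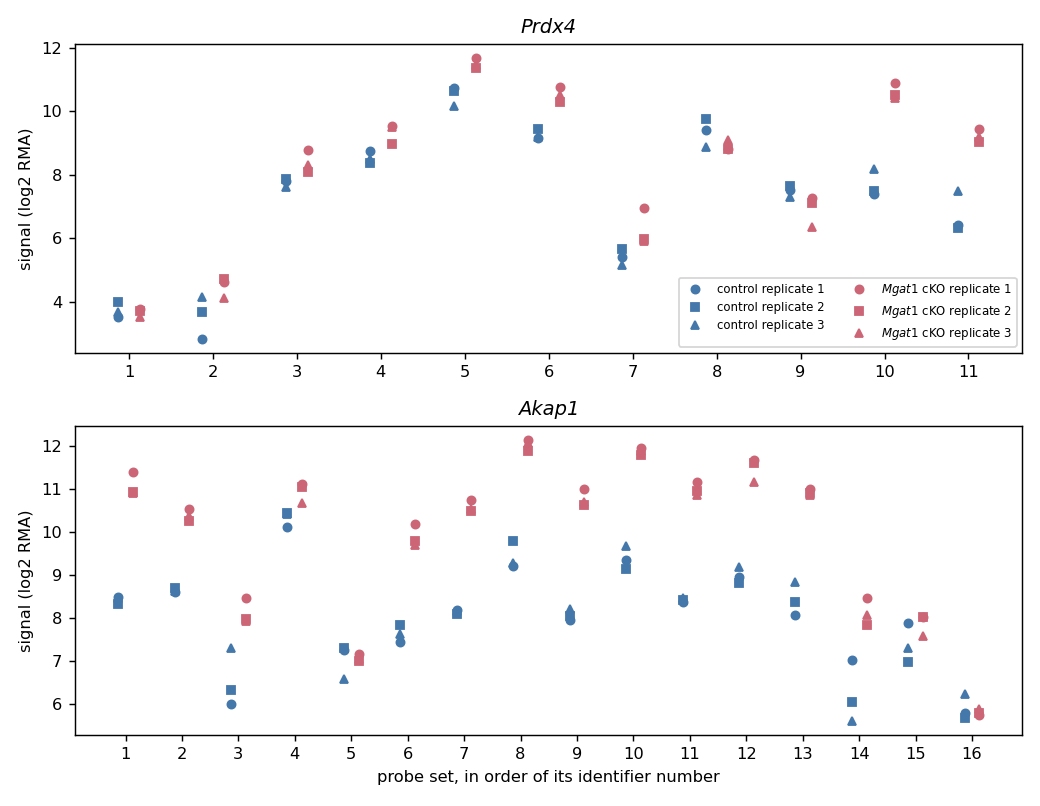
Signal (log2 RMA, vertical axis) of every probe set of *Prdx4* (top, 11 probe sets) and *Akap1* (bottom, 16 probe sets) on each of the 6 arrays, in the order of the identifier number. In *Prdx4* the last 2 probe sets separate the groups by 2.90 and 2.48, while the 2 before them are lower in the cKO by means of -0.44 and -0.58, and in *Akap1* the fifth and the last probe set read alike in both groups.

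Over the 69 probe sets of the 7 genes, 28 were raised, where 4.98% of all probe sets were raised, and 0 were lowered, where 3.97% of all were lowered. The cKO mean was higher for 61 and lower for 8. In 48 probe sets all cKO arrays exceeded all controls, beside 14.1% of all probe sets. Probe sets of 1 gene read the same RNA samples and are not replicates.

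**Figure D3:**
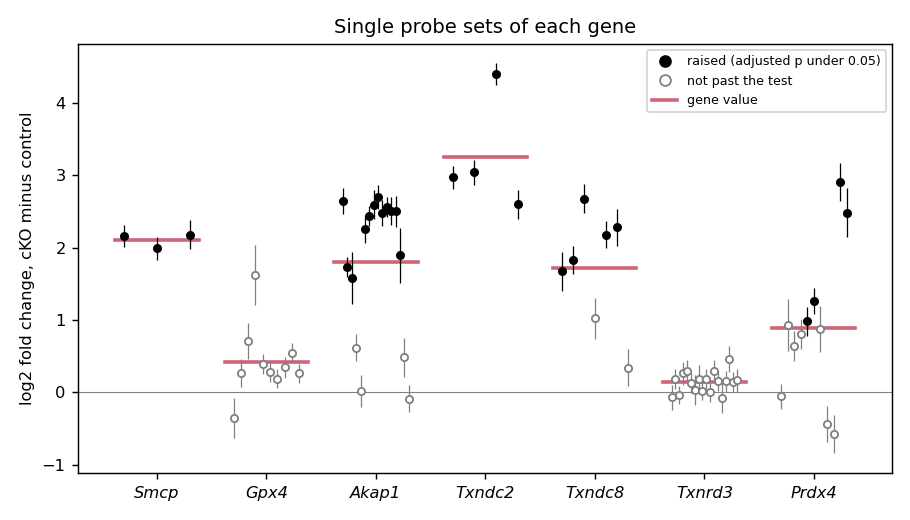
Log2 fold change, cKO minus control, of each probe set of the 7 genes (vertical axis; points with ± 1 standard error), with filled points raised by limma at an adjusted p under 0.05, open points not past the test and red lines at the gene value. All 3 *Smcp* and all 4 *Txndc2* probe sets are raised, *Gpx4* and *Txnrd3* have 0 raised, and *Prdx4* runs from -0.58 to 2.90.

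Start regions of the 7 genes were read from the RefSeq promoter windows of build GRCm38.p6, which run from 250 bases before to 50 bases after an annotated start. Those of *Smcp*, *Txndc2* and *Txndc8* are shown because they share 8 letters, and that of *Txnrd3*, which did not pass the test, is set beside them. Capitals mark TGATGTCA or its reverse complement TGACATCA, and all 4 are printed 5′ to 3′ on the strand of the gene. The *Smcp* window is chr3:92589024-92589323 (minus strand), the *Txndc2* window chr17:65642155-65642454 (minus strand), the *Txndc8* window chr4:58009077-58009376 (minus strand) and the *Txnrd3* window chr6:89643738-89644037 (plus strand).
Smcp: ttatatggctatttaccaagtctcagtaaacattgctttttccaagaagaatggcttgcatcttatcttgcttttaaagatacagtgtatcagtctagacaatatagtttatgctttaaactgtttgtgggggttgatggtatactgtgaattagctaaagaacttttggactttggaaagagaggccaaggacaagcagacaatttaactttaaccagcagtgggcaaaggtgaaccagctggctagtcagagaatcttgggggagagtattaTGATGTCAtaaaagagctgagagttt
Txndc2: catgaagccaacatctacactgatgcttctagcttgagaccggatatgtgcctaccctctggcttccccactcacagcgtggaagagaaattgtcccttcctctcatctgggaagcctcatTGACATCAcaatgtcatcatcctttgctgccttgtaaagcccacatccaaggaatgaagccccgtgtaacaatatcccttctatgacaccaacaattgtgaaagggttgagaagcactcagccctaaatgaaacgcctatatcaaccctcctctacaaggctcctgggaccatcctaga
Txndc8: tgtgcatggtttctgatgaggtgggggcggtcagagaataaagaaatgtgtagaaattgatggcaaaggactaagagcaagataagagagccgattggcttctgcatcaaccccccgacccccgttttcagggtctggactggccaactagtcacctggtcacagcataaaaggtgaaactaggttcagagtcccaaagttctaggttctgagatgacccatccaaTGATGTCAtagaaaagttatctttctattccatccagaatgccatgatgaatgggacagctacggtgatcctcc
Txnrd3: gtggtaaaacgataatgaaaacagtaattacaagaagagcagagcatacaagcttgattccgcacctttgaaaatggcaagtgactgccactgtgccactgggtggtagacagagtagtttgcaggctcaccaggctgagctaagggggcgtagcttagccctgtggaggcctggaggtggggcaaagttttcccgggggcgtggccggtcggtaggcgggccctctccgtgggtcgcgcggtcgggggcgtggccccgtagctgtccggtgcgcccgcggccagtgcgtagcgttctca

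TGATGTCA is a relative of the palindrome TGACGTCA, the cAMP response element, which factors of the CREM family recognize in spermatids. The letters were chosen after the sequences had been seen. On either strand TGATGTCA stood in 3.62% of all 32851 windows of 300 bases. It began 24 bases after the annotated start of *Smcp*, at position -24 relative to that of *Txndc8* and at position -129 relative to that of *Txndc2*, where it lay on the opposite strand. It was in none of the windows of *Gpx4* (4 windows), *Akap1* (3), *Txnrd3* (1) and *Prdx4* (1), nor in the second window of *Txndc2*, so that *Akap1*, which rose 3.50-fold, lacked letters that *Txndc8*, which rose 3.28-fold, carried. TGACGTCA itself, in 1.79% of all windows, was in none of the windows of the 7 genes, and it cannot overlap TGATGTCA at the same position. Its shorter part TGACG, in 20.8% of all windows, stood in 3 of the 4 *Gpx4* windows and in the *Prdx4* window, and in none of those of the other 5 genes. The *Gpx4* windows that start at chr10:80053315 and chr10:80053409 overlap, and their TGACG match is the same site. The GC content was 38.0% in the *Smcp* window, 48.3% in that of *Txndc2*, 47.0% in that of *Txndc8* and 60.3% in that of *Txnrd3*. A match is a description of these letters, and a missing match says only that they are not in the window.

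The thioredoxin system holds many more genes than *Txndc2* and *Txndc8*. Of 21 others measured, 1 was raised and 6 were lowered, and the median log2 fold change was -0.21 against -0.02 over all genes. *Txnip*, which encodes an inhibitor of thioredoxin, fell by 0.96 (adjusted p = 0.000780, limma), and *Tmx3*, a thioredoxin-related membrane protein of the endoplasmic reticulum, fell by 0.47 (adjusted p = 0.00494, limma). *Tmx2*, of the same membrane family, rose by 0.59 (adjusted p = 0.00386, limma), and *Txn1*, the general cytosolic thioredoxin, had a difference of -0.50 that did not pass the test (adjusted p = 0.0718, limma).

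Beside *Gpx4*, the glutathione and glutaredoxin list had 2 genes raised and 5 lowered of 15, with a median of -0.21. The raised genes were *Gpx6*, a glutathione peroxidase, by 1.09, and *Glrx2*, a mitochondrial glutaredoxin, by 0.91. *Gss* and *Gclc*, enzymes of glutathione synthesis, fell by 0.54 and 0.52. Of 16 measured genes for selenoproteins and their synthesis, 0 were raised and 6 were lowered, with a median of -0.32. *Secisbp2l*, a relative of the factor that directs selenocysteine insertion, and *Sephs1*, a relative of selenophosphate synthetase, fell by 0.74 and 0.66, and *Selm*, a selenoprotein of the endoplasmic reticulum, fell by 0.52, though its brightest probe set alone gave 0.18. The difference of *Sepp1*, a secreted selenium carrier, was -0.47 and did not pass the test (adjusted p = 0.163, limma).

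The relatives of *Prdx4* were read in the same way. Among 10 peroxiredoxins, dismutases and catalase, 0 were raised and 4 were lowered (*Cat* by 0.54, *Sod3* by 0.46, the mitochondrial *Prdx3* by 0.46 and the cytosolic *Prdx1* by 0.37), with a median of -0.14. Of 12 genes for oxidative folding in the endoplasmic reticulum, 7 were lowered and 1 was raised, with a median of -0.31. The raised gene was *Pdilt*, a protein disulfide isomerase relative made in the testis, whose log2 level went from 8.95 ± 0.338 to 10.71 ± 0.170, a rise of 1.76. *Erp29*, *Qsox2* and *Pdia4*, which act in the folding or disulfide bonding of secreted proteins, fell by 0.78, 0.62 and 0.58.

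The lists around *Smcp* and *Akap1* held raised and lowered genes. Among 20 A-kinase anchoring proteins and subunits of protein kinase A, 6 were raised and 5 were lowered, with a median of 0.04. The 4 genes with the largest differences were *Akap3* and *Akap4*, scaffolds of the fibrous sheath, with rises of 2.04 and 1.87, *Akap14*, an anchoring protein of ciliated cells and sperm, with a rise of 1.54, and *Prkar2a*, a regulatory subunit, with a rise of 1.49. The study also chose *Akap3* and *Akap4* for a PCR assay from its array results, so their direction here is not independent evidence. Of 12 measured genes of the mitochondrial sheath of the midpiece, 5 were raised and 1 was lowered, with a median of 0.10. *Tbc1d21* rose by 2.43, *Spata19* by 2.23, *Armc12* (named 4930511I11Rik in the probe table) by 2.23 and *Sept4*, a septin of the ring at the end of the midpiece, by 1.11. The genes of mitochondrial fusion, fission and cristae had 1 raised and 2 lowered of 12, with a median of -0.14. *Mff*, a receptor for the fission machinery, rose by 0.56, while *Pld6* and *Phb2* fell by 0.43 and 0.36, and *Opa1* had a difference of -0.23 that did not pass the test (adjusted p = 0.0821, limma). These counts describe the lists beside the background of 13.3% of genes raised and 18.4% lowered, and the lists were not tested against it.

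**Figure D4:**
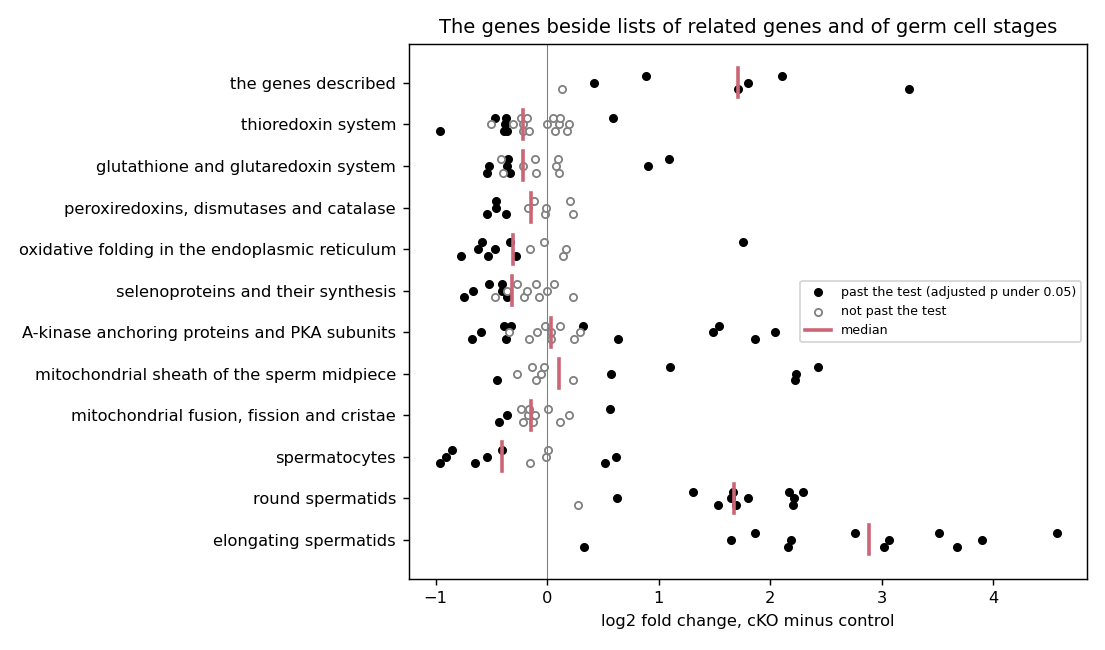
Log2 fold change, cKO minus control (horizontal axis), of the 7 genes and of each measured gene of related lists and of germ cell stage lists, with filled points past the limma test, open points not past it and red lines at the medians. The medians of the thioredoxin, glutathione, peroxiredoxin, oxidative folding and selenoprotein lists lie between -0.32 and -0.14, and those of round and elongating spermatid markers at 1.68 and 2.89.

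Markers of germ cell stages and of other testis cells were read as well. Over all genes 13.3% were raised and 18.4% were lowered, and the marker lists were not tested against these shares. Counts for spermatogonial, Leydig and endothelial markers lay near these shares. Of 12 round spermatid markers, 11 were raised, and their mean log2 level was 8.59 to 8.89 in controls and 10.28 to 10.44 in the cKO. All 12 elongating spermatid markers were raised, with mean levels of 7.51 to 7.64 and 10.18 to 10.48 and a median log2 fold change of 2.89. The study listed several of them, such as *Tnp1*, *Tnp2* and *Spata3*, among the raised genes of these arrays, so this count is not independent evidence. The protein products of several of the 7 genes are made in spermatids, and *Akap4* stands in both the anchoring protein list and the elongating spermatid list. Spermatocyte markers had 2 raised and 6 lowered of 11, with a median of -0.41. *Sycp1*, *Dmc1* and *Hormad1* fell by 0.96, 0.91 and 0.85, while the 2 raised were *Ccna1* (0.62) and *Pgk2* (0.52). Spermatogonial markers had 1 lowered of 10. The lowered spermatogonial marker was *Kit* (-0.52), whose difference was positive with the brightest probe set as the gene value. Peritubular and stromal markers had 8 lowered of 11, with mean levels of 8.52 to 8.85 in controls and 7.84 to 8.25 in the cKO. Macrophage markers had 8 lowered of 12, with mean levels of 7.85 to 8.28 and 6.90 to 7.58. Sertoli cell markers had 4 lowered of 13 measured, at 8.15 to 8.27 and 7.77 to 8.08, and Leydig cell markers had 2 lowered and 1 raised of 8 measured, at 8.62 to 9.07 and 7.53 to 8.65. Endothelial markers had 2 raised and 1 lowered of 9. Of the cKO arrays, replicate 1 had the lowest mean level of Leydig (7.53, against 8.65 and 8.39), stromal (7.84) and macrophage markers (6.90). For Sertoli cell markers its mean level was instead the highest of the cKO arrays (8.08, against 7.85 and 7.77). Replicate 1 also had the highest mean level of elongating spermatid markers (10.48), and it was the highest array for *Smcp*, *Akap1*, *Txndc2*, *Txndc8* and *Prdx4*. Without it these 5 genes were still raised (limma), with log2 fold changes of 2.05, 1.72, 3.14, 1.68 and 0.77. The part of these shifts in the values of the 7 genes was not tested.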

How the data were processed

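RNA of germ cells from 6 mice (3 controls and 3 *Mgat1* cKO), isolated by enzymatic digestion, was hybridized to Affymetrix Mouse Gene arrays, 1 mouse per array. The authors ran RMA in Affymetrix Expression Console on the scanner files, and the deposited values are log2 RMA signals per probe set. RMA brings the arrays close to 1 distribution, so a change in total mRNA is not visible, and it compresses differences at low signal. A small shift remained, with array medians of 7.35 to 7.38 in controls and 7.31 to 7.32 in the cKO. With each array centred on its median, 3654 genes were raised and 3426 lowered, against 3088 and 4255 without this step. The sources used here give neither versions nor a genome build. They give no litter, so that genotype and litter cannot be told apart.

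Of 269751 probe sets, 233753 had 1 gene symbol in the probe table, 5139 had several and 30859 none. Averaging the probe sets with 1 symbol over each gene (median of 8 per gene) gave the gene values. No background level accompanies the values, and 3 arrays per group limit the precision.

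Linear models without covariates were fitted in limma 3.58.1 (R 4.3.3) by lmFit and moderated by eBayes, with 2-sided tests, Benjamini-Hochberg adjustment over all genes or all probe sets, and a threshold of 0.05. Probe sets were also tested as the difference from the mean of the other probe sets of their gene. On simulated data of the same size, 50 genes were changed at each fold. The gene test recovered 62% of genes changed 1.5-fold, 94% at 2-fold and 100% at 4-fold and 8-fold, with 6 of 184 calls false. In the measured data 7343 genes were called, so these rates may not carry over to them. The test of deviating probe sets recovered 0 of 200 probe sets changed 4-fold when 200 were changed and 4030 of 5000 when 5000 were changed.

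The 7 genes, the gene lists and the tests were chosen with earlier results of these data known. Of 237 list genes 224 were measured, 6 of them under another name. Named beside the 7 genes were *Mgat1* and up to 4 genes with the largest absolute log2 difference in each pathway list. Up to 3 were named in each marker list, with the raised spermatocyte markers *Ccna1* and *Pgk2* added, and the 3 genes with the most like pattern. The probe sets given singly, the sequence motif and the promoter windows were also chosen after the values were seen. Promoter windows came from a RefSeq table of build GRCm38.p6, and gene coordinates from RefSeq of the same build. Plots were made in Python 3.11.15 (matplotlib 3.10.9). Alternatives covered array scaling, filters on dim probe sets, the value of a gene, the variance model, the test, the fold threshold, the replicate block and each array left out. No sample value column was left unused.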

Additional observations from a re-analysis of the deposited data

How the results depend on the processing

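*Smcp*, *Akap1*, *Txndc2*, *Txndc8*, *Prdx4* and *Txnrd3* kept their direction under all 17 alternatives run for each (the 2-fold rule was applied only to counts). Their side of the threshold held wherever the test was rerun. For the difference of group medians, 1 of the 17, no test was rerun and the main adjusted p was carried over, also for *Gpx4*. In the order named, log2 fold changes were 1.99 to 2.18, 1.72 to 2.59, 2.78 to 3.31, 1.59 to 2.33, 0.75 to 1.32 and 0.08 to 0.30. *Gpx4* kept its direction (0.30 to 0.51) but lost its call in 6 of 17, with adjusted p between 0.00301 and 0.0852 over all alternatives. These were control replicate 2 and each cKO array left out, the brightest probe set as the gene value (0.35, adjusted p = 0.0811, limma) and the methods' one-way test with adjustment (adjusted p = 0.0852). Requiring a 2-fold difference as well left 4 of the 7 genes raised, without *Gpx4* and *Prdx4*. With 1 array left out, 5 to 6 of the 7 genes and 24 to 27 of their probe sets were raised, 0 genes and 0 probe sets were lowered, and 2369 to 3111 of all genes were raised and 2911 to 3737 lowered. The count of deviating probe sets (6) was 0 to 3 with 1 array left out, 0 with the replicate block and 13 with the dimmest 25% left out. Replicate numbers did not pair the samples (correlations of deviations 0.03, 0.10 and -0.06), and the block gave 6 genes of the 7 raised, 3010 of all genes raised and 4020 lowered. The 3088 raised and 4255 lowered of all genes became 2354 and 2629 with the median of probe sets, 2315 and 2194 with the brightest probe set, 2141 and 2408 with the one-way test, 968 and 113 at 2-fold or more, and 3654 and 3426 with each array centred on its median. Without control replicate 3, probe sets 17267589 and 17267600 of *Akap1* changed sign (-0.21 and 0.078), as did 17460742 of *Txnrd3* (0.081), and 17267589 also did without cKO replicate 1 (-0.025). With 1 array left out, 17267589 ranged from -0.21 to 0.15 and 17267600 from -0.20 to 0.078. With the brightest probe set *Selm* became 0.18 and *Kit* 0.031. The cause of these changes was not tested. Of 1231 comparisons for 77 of the other named genes, 1134 kept call and direction, 84 lost the call, 11 gained it and 2 reversed.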

Other observations

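Patterns over the 6 arrays were compared after centering each gene on its own control mean, with likeness given as the root mean square difference in log2 units. Only genes with 2 or more probe sets were compared, and the 7 genes, predicted genes (Gm numbers) and RIKEN clones were left out. Likeness so defined includes the size of the fold change, by which *Txndc2* ranked 24 among all genes. Of the genes compared, 9 lay within 0.2 of *Txndc2*, the nearest being *Dnajb7* (0.142), *Spata3* (0.145) and *Sly* (0.147). *Smcp* had 84 such genes, led by *Allc* (0.0331), *Ppm1j* (0.0557) and *Prm3* (0.0595). *Txndc8* had 112, led by *Cib4* (0.0682), *Izumo1* (0.0714) and *Fam71d* (0.0960), and *Akap1* had 143, led by *Vmn2r7* (0.0400), *Aif1* (0.0455) and *Proca1* (0.0537). *Prdx4* had 268, led by *Sept3* (0.0365), *Ntrk3* (0.0605) and *Cul4b* (0.0676). *Gpx4* had 1981, led by *Pax6os1* (0.0232), *Hpn* (0.0423) and *AA467197* (0.0442), and *Txnrd3*, close to no difference, had 7011, led by *Crym* (0.0213), *Spata16* (0.0218) and *Chmp2a* (0.0249).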
